A study of Mus musculus with 2 samples.

Results

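The TREM receptors, the CD300 receptors and the adaptors and kinase that serve them were examined in cultured mouse myeloid cells with and without an active form of the transcription factor MEF2C. The set consisted of 10 genes, namely *Trem1*, *Trem2*, *Trem3*, *Treml2*, *Tyrobp*, *Hcst*, *Syk*, *Cd300lf*, *Cd300lb* and *Cd300a*. They were found by gene name among the non-control probes of both arrays, an older symbol of the same gene included. Of these genes 9 had a probe, out of 27620 gene names on the array, and *Treml2* had none. The 9 genes were covered by 13 probes, with 2 probes for each of 4 genes and 1 probe for each of the other 5. The genes were chosen by name with the log2 differences and signals of these same arrays known, so their values are a description and no test supports them.

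The cells were M/E cells, a line of murine marrow cells made immortal through expression of the leukaemia fusion MLL/ENL, and the labels give both cultures the genotype M/E-Mef2c del/-, without a functional form of *Mef2c*. The control culture was infected with the empty vector MYs-iPAC and the other with MYs-pMef2cASR, which encodes MEF2C-ASR, a constitutively active MEF2C mutated in its binding of histone deacetylases, and both were selected with puromycin. Both grew in RPMI with 10% FCS, IL3, IL6 and GM-CSF at 10 ng/ml each and SCF at 100 ng/ml, and were harvested 6, 24 and 48 h after seeding in fresh medium. The RNA of 3 harvests of a culture was combined, so each group is 1 pooled RNA on 1 one-colour Agilent whole mouse genome array of Cy3-labelled RNA. The labels do not give the mice, the number of founder cultures or the promoter that drives MEF2C-ASR.

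TREM and CD300 receptors are immunoglobulin-domain proteins on the surface of granulocytes, monocytes, macrophages and their relatives. The activating receptors have short tails and borrow their signal from adaptors in the membrane: TYROBP, also called DAP12, carries an immunoreceptor tyrosine-based activation motif (ITAM) that recruits the kinase SYK when phosphorylated, and HCST, also called DAP10, carries a motif that recruits phosphoinositide 3-kinase. The inhibitory receptors of the CD300 family instead carry tyrosine motifs that recruit phosphatases and restrain such signals.

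*Trem2* stood far above the rest of the set. Its measured probe was 11.3-fold higher on the MEF2C-ASR array than on the control array, and the inhibitory receptor gene *Cd300lf* was 2.03-fold higher. These were 2 of the 9 measured genes at or past 2-fold (a log2 difference of 1) upward, and 0 of 9 were at least 2-fold lower. The set was chosen with these differences in view, so nothing is read from these counts. Over the whole of the arrays 16574 genes had a value in both groups, of which 289 (1.74%) passed the same rule upward and 316 (1.91%) downward. Scaling by the spike-in spots gave 214 higher and 433 lower, since it lowered every log2 difference by 0.15 (a shift of -0.15). The other 7 genes lay within 2-fold and 6 of them within 1.5-fold, a range that held 90.4% of all measured genes. The median log2 difference of the set was 0.39, against -0.03 over all measured genes. A difference above 0 was seen for 7 genes of the set, with *Tyrobp* at -0.05 under spike-in scaling, and 44.8% of all measured genes lay above 0. Each signal is a mixture of all cells in the culture, so fewer cells of a type and less RNA per cell cannot be told apart. Since each group is 1 array, every difference below is a description of this pair of arrays, with no replicate behind it.

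**Figure D1:**
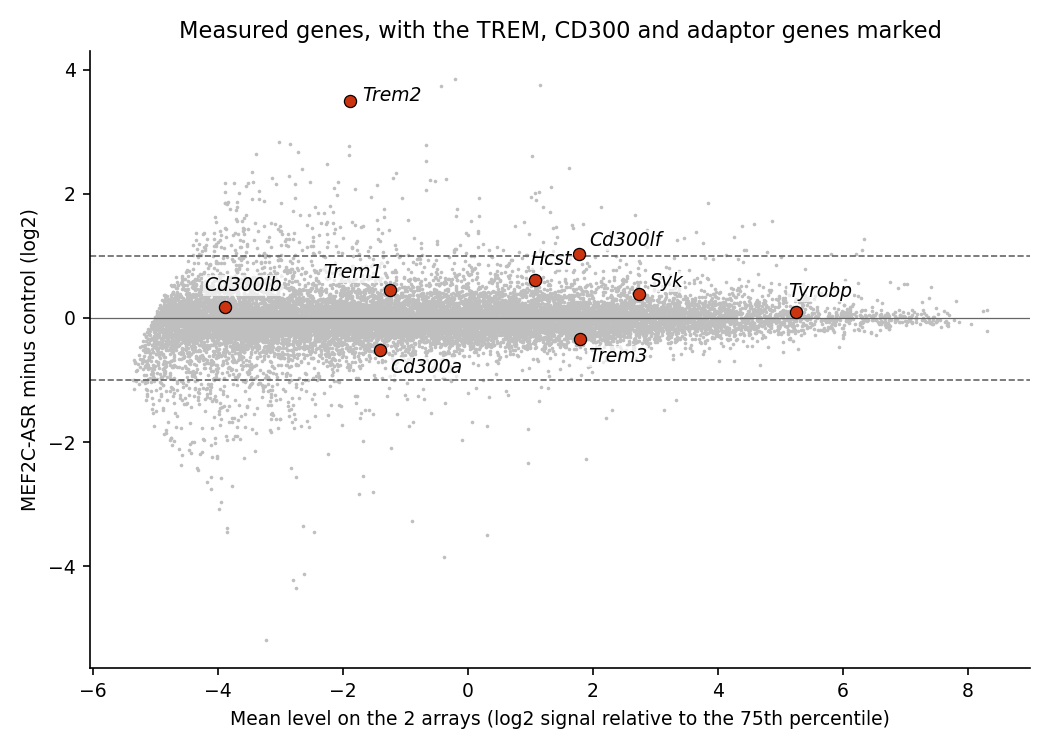
Log2 difference (MEF2C-ASR minus control, vertical axis) against the mean level on the 2 arrays (log2 signal relative to each array's 75th percentile, horizontal axis) for the 16574 genes measured on both arrays. Red points are the 9 measured genes of the set and dashed lines mark 2-fold in each direction; *Trem2* lies at 3.50 and *Cd300lf* at 1.02, while the other 7 lie between the dashed lines.

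Of the spots 60.1% (control) and 67.5% (MEF2C-ASR) were well above background, and levels correlated across genes at 0.99. *Mef2c* was 2.54-fold higher on the MEF2C-ASR array by 1 probe (signals of 795 and 1969). A second *Mef2c* probe was too dim to be measured, with signals of 7.86 in control cells and 7.76 in MEF2C-ASR cells. Whether either probe lies in the deleted part or in the vector's transcript is not given, so neither probe checks the genotype. Markers of the labelled cells were present, and all 9 myeloid progenitor and blood-cell genes were measured on both arrays, with *Kit* at 0.52, *Hoxa9* at -0.09 and *Spi1* at 0.39.

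Markers of maturing myeloid cells were higher as well. All 10 neutrophil markers with a probe were higher on the MEF2C-ASR array, 4 of them at least 2-fold. Over all measured genes 44.8% lay above 0 and 1.74% were at least 2-fold higher. The summed signal of the neutrophil markers was 546349 in control cells and 813293 in MEF2C-ASR cells. *S100a9* alone gave 258469 and 302976 of these. Each summed signal adds the highest unscaled probe signal of every listed gene with a probe, well above background or not. The sums therefore do not measure how many cells of a type were present. Of 9 monocyte and macrophage markers with a probe 5 were measured, with a summed signal of 8021 and 11759. *Csf1r*, the receptor of macrophage colony-stimulating factor, was at 1.62 and *Adgre1* at 0.74, while *Fcgr1* was at -0.51 and *Ms4a7* and *Mrc1* were not well above background on either array. The part of such cells in the differences of *Trem2* and *Cd300lf* was not tested. Of 7 NK-cell markers 0 were measured, with summed signals of 143 and 104. The summed signals of markers were 446 and 558 for T cells, 741 and 765 for B cells, 2519.5 and 2515 for mast cells and basophils, 819 and 1068 for megakaryocytes, 519 and 468 for erythroid cells and 1029.5 and 714 for stromal and endothelial cells. Of these 6 lists, the one gene at least 2-fold higher was the megakaryocyte gene *Pf4* at 1.24, and *Pdgfrb* of the stromal list was at -1.81 from dim signals of 83.8 and 23.4 (-0.75 with normexp correction). *Lum*, also stromal, was well above background on the control array alone and lower on the other by at least 3.46 on the log2 scale.

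The sequence before the start of *Trem2* and *Cd300lf*, the genes past 2-fold, is shown with that of *Trem1* and *Cd300a*, their relatives on the same chromosomes that were not, to let these windows be compared. Each is the 250 bases before the annotated start in RefSeq, assembly GRCm38.p6, on the strand of the gene. The windows are chr17:48346151-48346400 (+) for *Trem2*, chr11:115133993-115134242 (-) for *Cd300lf*, chr17:48232489-48232738 (+) for *Trem1* and chr11:114889791-114890040 (+) for *Cd300a*. Capitals mark GAGGAA, the core bound by PU.1-type ETS factors, or its reverse complement TTCCTC.
Trem2: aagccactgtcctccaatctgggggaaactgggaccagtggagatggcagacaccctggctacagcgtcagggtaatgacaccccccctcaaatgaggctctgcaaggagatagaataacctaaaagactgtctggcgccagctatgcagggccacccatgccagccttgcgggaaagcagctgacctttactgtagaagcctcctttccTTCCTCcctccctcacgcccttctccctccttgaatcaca
Cd300lf: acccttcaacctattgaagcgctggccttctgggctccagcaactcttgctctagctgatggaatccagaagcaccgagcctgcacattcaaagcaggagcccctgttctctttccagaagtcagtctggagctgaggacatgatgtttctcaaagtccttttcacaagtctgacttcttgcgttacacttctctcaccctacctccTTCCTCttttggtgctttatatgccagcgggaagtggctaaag
Trem1: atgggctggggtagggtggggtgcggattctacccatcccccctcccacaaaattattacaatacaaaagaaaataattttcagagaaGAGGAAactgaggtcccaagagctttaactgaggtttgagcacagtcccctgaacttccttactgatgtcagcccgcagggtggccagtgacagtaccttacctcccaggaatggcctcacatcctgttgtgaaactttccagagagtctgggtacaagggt
Cd300a: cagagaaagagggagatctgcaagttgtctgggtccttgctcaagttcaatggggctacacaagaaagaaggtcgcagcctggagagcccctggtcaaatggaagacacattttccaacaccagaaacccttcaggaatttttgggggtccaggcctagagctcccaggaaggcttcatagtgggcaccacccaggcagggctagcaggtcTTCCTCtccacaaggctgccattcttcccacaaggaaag

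The match lay 40 to 35 bases before the start in *Trem2*, 43 to 38 in *Cd300lf* and 39 to 34 in *Cd300a*, and farther away, 162 to 157, in *Trem1*. Of the set, 7 genes had a window in the RefSeq table, with 8 windows in all because *Syk* had 2. The core was found, on either strand, in 5 of these 7 genes, *Syk* with a match 9 to 4 bases before the start in one of its windows, and in neither *Hcst* nor *Cd300lb*. Of all 32851 windows of this length, 23.3% held it, a share of windows, while the count above is of genes. The consensus of MEF2 factors, searched on both strands, was in none of the 8 windows, and 2.92% of all windows held it. TGANTCA, a loose form of the AP-1 site with any base at its centre, was found in 6.75% of all windows. In the set it was found only in *Trem2*, as TGAATCA, 9 to 3 bases before the start. The AP-1 consensus has C or G at the centre, so this match with A is not the consensus site. TTNNGNAA, a C/EBP-type site that can overlap GAGGAA and did so in *Syk*, was found in *Cd300lf*, *Cd300a*, *Trem1*, *Hcst* and *Syk*, not in *Trem2* or *Cd300lb*, and in 36.8% of all windows. A match is a run of letters in the window and nothing more.

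*Trem2* encodes a receptor for lipids, lipoproteins and dying cells that pairs with TYROBP and is best known from microglia, tissue macrophages and osteoclasts. Its first probe lies on chromosome 17 at 46496865 to 46496924, in the coordinates of the array file, for which the sources used here do not give a genome build. This probe gave a signal of 102 ± 12.7 in control cells and 1123 ± 112 in MEF2C-ASR cells, where ± is the error the scanner software assigns to the spot. The log2 difference was 3.50. On the control array signals from 38.3 upward could pass the flag for being well above background, so *Trem2* was measured there, but low. The second probe, at 46496563 to 46496699, had 41.5 ± 9.86 in control cells, too dim to pass the background flag, and 264 ± 26.8 in MEF2C-ASR cells. Against its own dim level it was 6.53-fold higher, a ratio that the error of the dim signal leaves uncertain. Both probes were thus far higher on the MEF2C-ASR array.

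The error from printing was estimated from probes spotted many times. The standard deviation of a difference was 0.068 (log2) over 95 probes with signals of 200 or more and 0.25 over 29 probes with signals under 200. For the first *Trem2* probe, dim on the control array alone, it was 0.22. This error does not hold the variation between cultures, RNA pools or labelling. By log2 difference *Trem2* ranked number 4 of 16574 genes, at percentile 99.98. Next above it were *S100a6*, a calcium-binding protein, at 3.76 and *Clec4n*, the fungal pattern receptor dectin-2, at 3.73. Next below were *D930048N14Rik* at 2.84 and the monocyte-attracting chemokine *Ccl2* at 2.81. The likeness is one of difference over the same 2 arrays alone. The difference of *Trem2* stayed between 2.84 and 3.53 under the 10 other settings that gave a value; with brighter probes alone it was not measured.

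*Trem1* encodes a receptor that amplifies inflammatory responses of neutrophils and monocytes. Its probe at 46389066 to 46389125 on chromosome 17 gave 639 ± 64.5 in control cells and 896 ± 89.7 in MEF2C-ASR cells, 1.44-fold higher. Its second probe, at 46387503 to 46387562, gave 329 ± 33.8 and 415 ± 41.8, 1.29-fold higher. Both probes were thus higher, with a mean log2 difference of 0.45 (0.30 to 0.52 over the other settings), short of 1.5-fold.

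*Trem3*, a mouse receptor that pairs with TYROBP, was the TREM gene of the set with a lower value. Its probe at 46401076 to 46401135 gave 4955 ± 496 in control cells and 3808 ± 381 in MEF2C-ASR cells, 1.27-fold lower. The log2 difference was -0.34 and stayed between -0.49 and -0.33 over the other settings, within 1.5-fold throughout. *Treml2*, whose product carries a signalling motif in its own tail, had no probe and is not analysed here.

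**Figure D2:**
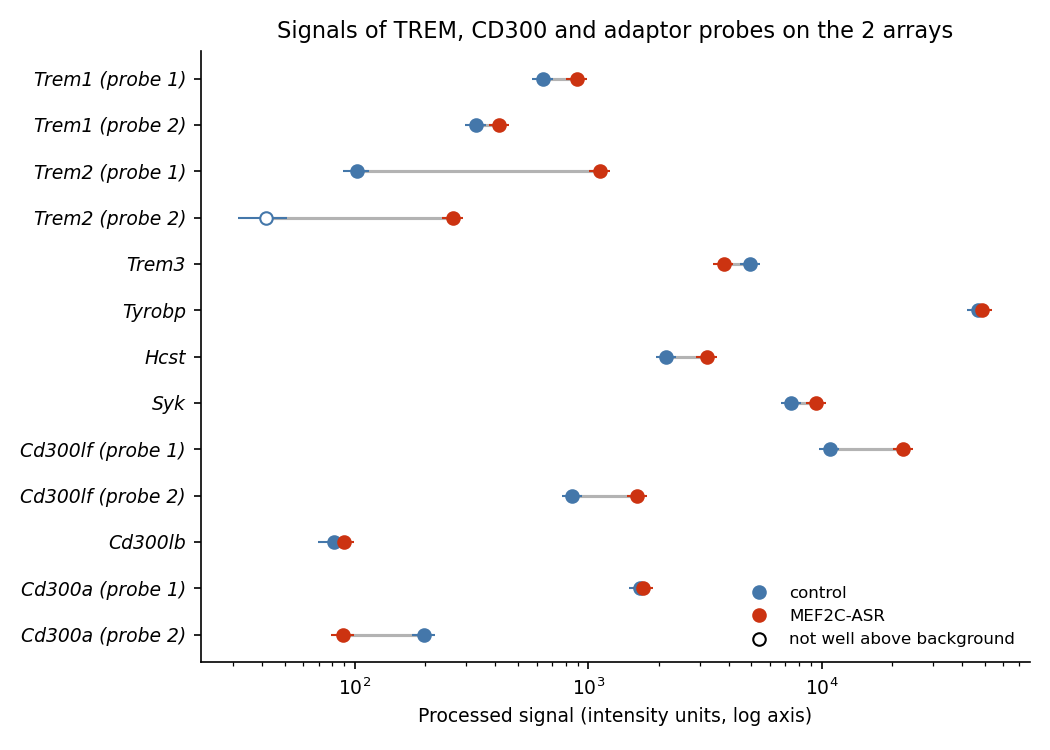
Processed signal (intensity units, log axis) of the 13 probes of the set on the control array (blue) and on the MEF2C-ASR array (red), with bars for the error given by the scanner software; the open circle is a probe not well above background. The 2 *Trem2* probes are the widest pairs, and probe 2 of *Cd300a* and the probe of *Trem3* are the pairs with the red point on the left.

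The inhibitory receptor gene *Cd300lf* differed by close to 2-fold in both probes. At chromosome 11, 115225264 to 115225323, the signal was 10821 ± 1082 in control cells and 22414 ± 2241 in MEF2C-ASR cells, 2.12-fold higher. The other probe, spread over 115233413 to 115235205, gave 855 ± 86.0 and 1625 ± 163, 1.95-fold higher. The mean log2 difference of 1.02 was at the edge of the rule of size, and lay between 0.88 and 1.09 over the other settings, below 1 in 4 of them. It was 0.88 with spike-in scaling, 0.98 when scaled by probes well above background, 0.99 with normexp correction and 0.999 with quantile normalization. In direction it was higher on the MEF2C-ASR array in each setting.

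*Cd300lb* encodes an activating receptor of the family that pairs with TYROBP. Its probe at 115037495 to 115037554 on chromosome 11 gave 81.4 ± 11.9 in control cells and 89.3 ± 10.0 in MEF2C-ASR cells. This 1.13-fold difference (log2 0.17) was smaller than the spotting error of 0.25 for dim probes, so the arrays cannot be ordered for this gene.

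*Cd300a* encodes an inhibitory receptor that recognises phospholipids of dying cells, and its probes disagreed. The probe at 115010200 to 115010259 gave 1668 ± 167 in control cells and 1719.5 ± 172 in MEF2C-ASR cells, 1.06-fold higher. The probe at 115013125 to 115013184 gave 198 ± 21.7 and 88.8 ± 10.1, 2.17-fold lower. The mean log2 difference was -0.52, and 0.08 when the brightest probe stood for the gene, so no direction is given. Neither probe carried a flag, and the difference of the second exceeded the spotting error of 0.25 for dim probes. Why they disagree was not tested.

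Of the adaptor and kinase genes, *Tyrobp* differed least and *Hcst* most. *Tyrobp*, the partner of TREM1, TREM2, TREM3 and CD300LB, had a bright probe on chromosome 7 spread over 27358831 to 27360558. Its signal was 46758 ± 4676 in control cells and 48899 ± 4889.9 in MEF2C-ASR cells. The log2 difference was 0.10, and -0.05 with spike-in scaling, so its direction depended on the scaling, and no spot was saturated. *Tyrobp* thus lay within 1.5-fold on arrays on which *Trem2* differed by 11.3-fold.

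*Hcst* lies beside *Tyrobp* and its product is best known as the partner of the NK-cell receptor NKG2D. Its probe at 27361020 to 27361320 gave 2164 ± 217 in control cells and 3226 ± 323 in MEF2C-ASR cells, 1.53-fold higher. The log2 difference was 0.61 and stayed between 0.47 and 0.63 over the other settings. By the looser rule of 1.5-fold, *Hcst* as reported joined *Trem2* and *Cd300lf*. It fell short of 1.5-fold with spike-in scaling (0.47), when scaled by probes well above background (0.57) and with normexp correction (0.58). Of all genes 4.46% were at least 1.5-fold higher and 5.03% at least 1.5-fold lower, a side on which no gene of the set was counted. *Klrk1*, the gene of NKG2D, did not exceed background clearly enough for a value on either array.

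*Syk* encodes the kinase that docks on phosphorylated ITAMs. Its probe on chromosome 13 at 51686664 to 51686723 gave 7421 ± 742 in control cells and 9502 ± 950.2 in MEF2C-ASR cells, 1.31-fold higher. The log2 difference was 0.39, with 0.25 to 0.41 over the other settings. Just inside the 2-fold rule therefore stood *Cd300lf* at 1.02, and just outside it *Hcst* at 0.61.

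The TREM genes lie side by side on chromosome 17, and the genes on either side of *Trem2* differed by less than 2-fold. Of 9 protein-coding genes of this locus 8 were measured, with log2 differences from -0.34 to 3.50. *Treml4*, a receptor of dendritic cells and macrophages, was the other gene past 2-fold, with 72.4 in control cells and 162 in MEF2C-ASR cells (2.29-fold higher; log2 0.69 with normexp background correction). Next to *Trem2*, *B430306N03Rik* (*Treml6*) was at 0.80, with signals of 291 and 492, and *Treml1*, the platelet member of the family, at 0.06. *A530064D06Rik* (*Trem4*) was at 0.88, with signals of 86.9 and 156, and *9830107B12Rik* (*Trem5*) at 0.01. Beyond the locus, *Nfya* was at -0.22 and *Oard1* at -0.10, and on the other side *1700122O11Rik* was at -0.12.

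The CD300 locus on chromosome 11 held 12 protein-coding genes, of which 9 had a probe and 8 were measured. *Cd300lf*, at the end of the locus, was the 1 gene of these past 2-fold. *Cd300c2*, an activating member that pairs with ITAM adaptors, was 1.53-fold higher, with probes at 0.59 and 0.64. *Cd300ld* (0.01), *Cd300e* (-0.14) and *Cd300ld3* (-0.16) lay within 1.5-fold, and *Cd300c* was below the background flag on both arrays. *Rab37*, which lies next to *Cd300lf* and encodes a vesicle-trafficking protein, was at -0.25, and *Slc9a3r1* on the other side was at 0.38. *Tyrobp* and *Hcst* were flanked by *Lrfn3* at -0.07 and *Nfkbid* at -0.08. CD300 genes are alike in sequence, and the probe sequences were not analysed here, so a probe may read a relative.

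**Figure D3:**
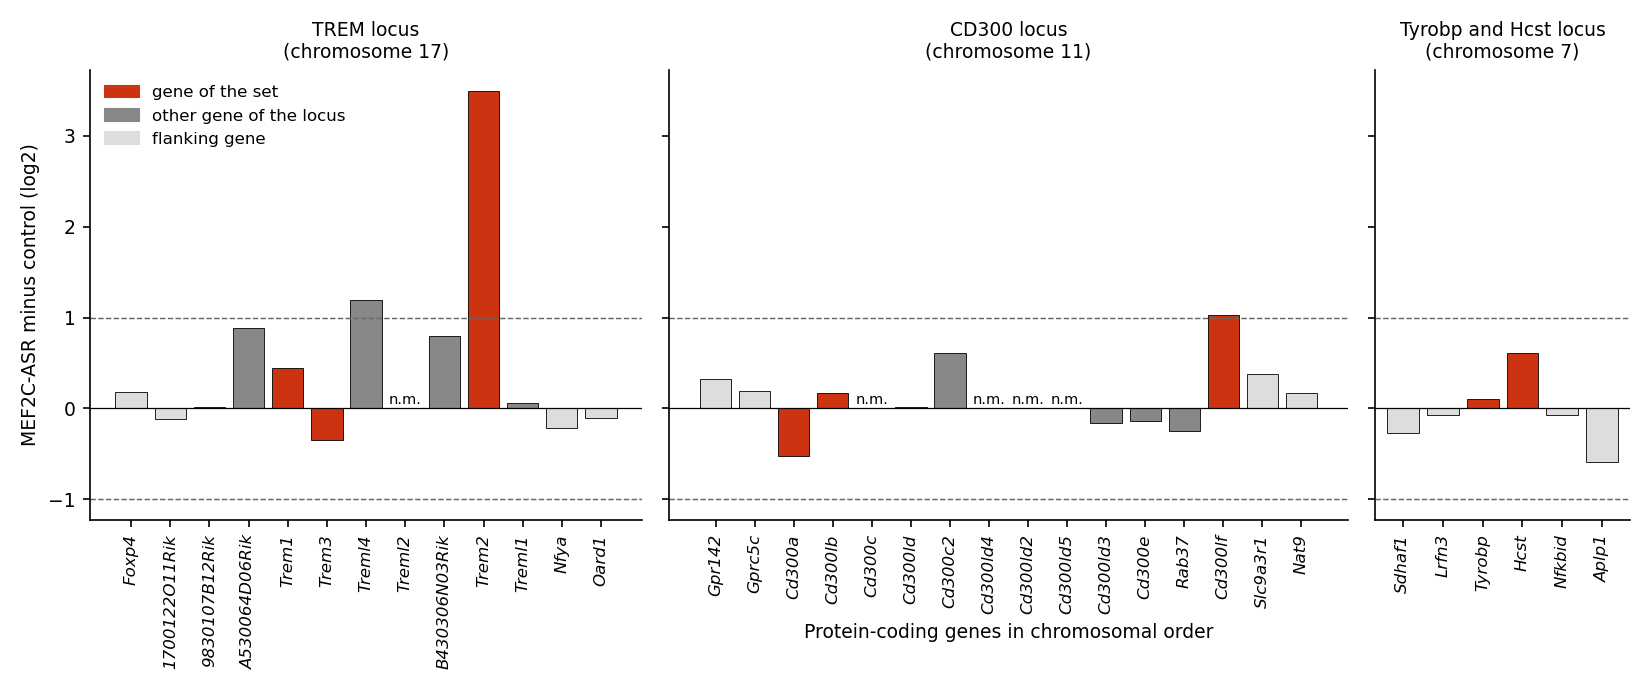
Log2 difference (MEF2C-ASR minus control) of the protein-coding genes of the TREM, CD300 and *Tyrobp*/*Hcst* loci and of their flanking genes, in chromosomal order (n.m., not measured on both arrays; dashed lines, 2-fold). *Trem2* at 3.50 stands between genes below the dashed line. *Treml4* at 1.19 lies between *Trem3* at -0.34 and *Treml2*, which had no probe. *Cd300lf* at 1.02 lies between *Rab37* at -0.25 and *Slc9a3r1* at 0.38. The bar of *Cd300a* is the mean of probes that disagreed in sign.

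Of the 13 other TREM and CD300 genes listed, 9 were measured, 1 (*Treml4*) was at least 2-fold higher and 0 were lower, with a median log2 difference of 0.01. Here and for the lists below, the shares over all measured genes were 1.74% higher and 1.91% lower, with a median of -0.03. Among 15 other receptors and adaptors of the ITAM kind, 9 were measured, 2 were at least 2-fold higher and 0 lower, and the median was 0.40. These 2 were *Clec4n*, which pairs with the adaptor FCER1G, at 260 in control cells and 3374 in MEF2C-ASR cells (13.3-fold), and *Sirpb1a*, a TYROBP partner, at 229 and 653 (2.82-fold). *Fcer1g*, the other ITAM adaptor of myeloid cells, was at 0.39, and *Clec5a*, another TYROBP partner, at -0.16.

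Of 12 inhibitory myeloid receptors 11 were measured, 3 were at least 2-fold higher and 0 lower, with a median of 0.68. *Pirb*, which binds MHC class I, had signals of 4609 and 14064 (3.14-fold higher), and *Lilrb4a*, of the same receptor family, 3832 and 9607 (2.57-fold). The C-type lectin *Clec12a* had 83.1 and 178 (2.19-fold), and 0.71 on the log2 scale with normexp correction. These 3 genes were named for passing the 2-fold rule, so that *Cd300lf* shared their direction is not a result. Of all genes 1.74% were at least 2-fold higher. Of the 11 measured genes of the list 9 lay above 0. Some of the list hardly differed, with *Sirpa* at 0.11, *Ceacam1* at 0.04, and *Siglecg* and *Clec4a2* each at -0.01.

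Among 29 Src family kinases and signalling genes downstream of SYK, 26 were measured, 4 were at least 2-fold higher and 1 lower, and the median was 0.20. *Fgr*, a Src family kinase of myeloid cells, was at 177 in control cells and 465 in MEF2C-ASR cells (2.69-fold higher). *Lat2*, a membrane adaptor, was 2.58-fold higher, with probes at 0.98 and 1.75, and the kinase *Btk*, at 5998 and 13210, 2.26-fold. *Zap70*, the relative of SYK used by T and NK cells, was 3.14-fold lower from dim signals of 177 and 54.9 (log2 -1.65; -0.95 with normexp correction). *Plcg2* (0.27), *Lyn* (0.02) and *Vav1* (-0.09), other parts of this relay, lay within 1.5-fold. Of 15 phosphatases and other brakes 14 were measured and none was past 2-fold in either direction, with a median of 0.08; the SYK-pathway brakes *Dok2* and *Inpp5d* were at 0.05 and 0.08.

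All 13 listed ligands, partners and sheddases of TREM receptors had a probe and 12 were measured, 1 at least 2-fold higher and 1 lower, with a median of 0.02. The higher one was *Aph1a*, a subunit of γ-secretase, which clears the stub left after TREM2 is shed (2.93-fold, probes at 1.21 and 1.90). The lower one was *Clu*, a lipoprotein component and TREM2 ligand, with signals of 174 and 43.4 (3.91-fold lower; log2 -1.10 with normexp correction). *Apoe*, the main lipoprotein ligand of TREM2, was at -0.19, and the sheddase genes *Adam10* and *Adam17* were at 0.37 and 0.16. *Pglyrp1*, a ligand of TREM1, was at 0.81. Apart from *Aph1a* and *Clu*, the measured genes of this list lay within 2-fold.

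Of 18 genes known from TREM2-dependent microglia and lipid-associated macrophages 15 were measured, 3 were at least 2-fold higher and 0 lower, and the median was 0.63. Over all measured genes 1.74% were at least 2-fold higher and 1.91% lower, and the median was -0.03. *Spp1* (osteopontin) was at 2993 and 10121 (3.47-fold higher), *Clec7a* (the β-glucan receptor dectin-1) at 959 and 2059 (2.20-fold) and the chemokine *Ccl6* at 18594 and 38609 (2.13-fold). With spike-in scaling *Clec7a* was at 0.99 and *Ccl6* at 0.94 on the log2 scale. *Lpl*, lipoprotein lipase, was well above background on the MEF2C-ASR array alone and at least 5.58-fold higher there. *Axl*, a receptor of this state, was below the background flag on both. Among lysosomal genes of the list, *Cd68* was at 0.65, *Ctsb* at 0.56, *Ctsd* at 0.47, *Cd63* at 0.02 and *Ctsl*, the lowest of the list, at -0.53. Of 11 osteoclast genes, another cell type that uses TREM2 and TYROBP, 6 were measured and none was past 2-fold in either direction (median 0.17). *Mmp9* was at 0.77, *Itgb3* at 0.63 (its probes at 0.06 and 1.20) and *Nfatc1* at 0.45, while *Ocstamp* was at -0.11, *Car2* at -0.68 and *Dcstamp* at -0.92 (-1.07 with spike-in scaling, -0.19 with normexp correction). *Acp5*, *Ctsk* and *Tnfrsf11a* passed the background flag on the MEF2C-ASR array alone, none with a bound of 2-fold. *Calcr* and *Atp6v0d2* passed it on neither array. Dimmer signals could pass this flag on the MEF2C-ASR array than on the control array. Passing it there alone therefore does not show a higher level. Signals in control and MEF2C-ASR cells were 37.3 and 38.3 for *Acp5* and 17.8 and 38.3 for *Ctsk*. The brighter probe of *Tnfrsf11a* had 40.3 and 33.7.

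**Figure D4:**
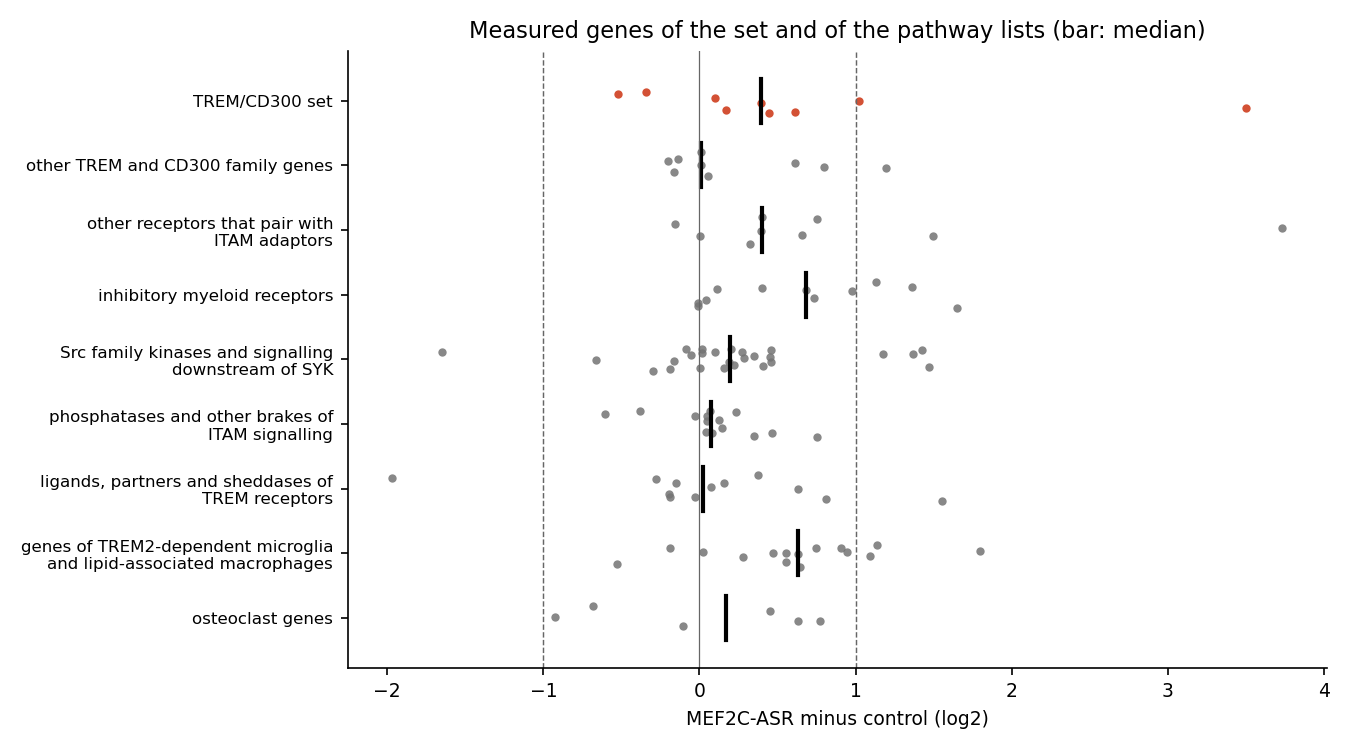
Log2 difference (MEF2C-ASR minus control) of each measured gene of the set (red) and of 8 lists of related genes (grey), with a black bar at the median and dashed lines at 2-fold; the vertical scatter within a row has no meaning. *Trem2* at 3.50 and *Clec4n* at 3.73 are the points farthest to the right, and the medians run from 0.01 for other TREM and CD300 genes to 0.68 for inhibitory receptors.

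**Figure D5:**
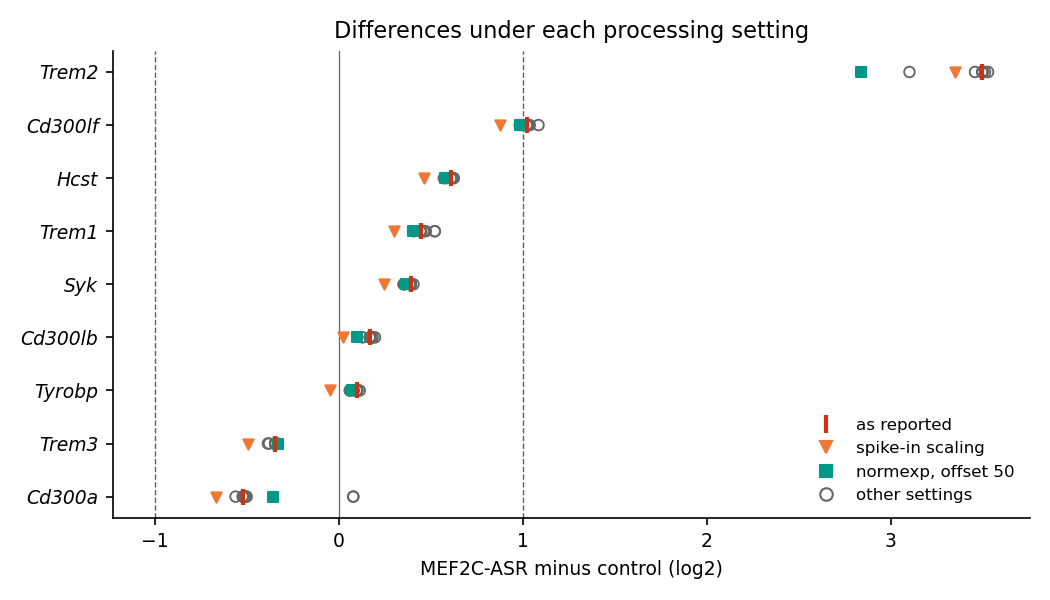
Log2 difference (MEF2C-ASR minus control) of the 9 measured genes of the set as reported (red bars), with spike-in scaling (triangles), with normexp background correction (squares) and under the other settings (open circles); dashed lines mark 2-fold. *Trem2* stays between 2.84 and 3.53, *Cd300lf* straddles the line at 1, *Tyrobp* crosses 0 with spike-in scaling, and *Cd300a* reaches 0.08 where its brighter probe stands alone.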

How the data were processed

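Per the file headers, each deposited intensity is the linear brightness of a spot from Agilent Feature Extraction 9.5.1.1, background-subtracted and detrended within each array, with dim signals replaced by surrogates and with no normalization between arrays. The deposited value table held the same numbers (largest relative difference 0). Per the file headers, the software also gave the flags and the error per spot. Feature-outlier spots (202 and 201) were left out; no spot was saturated.

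From the log2 signals the 75th percentile of the array's 43379 non-control spots (a signal of 1272 for control, 1240 for MEF2C-ASR) was subtracted. A probe was measured where well above background on both arrays; a gene was the mean over its measured probes, and was counted past 2-fold only where all its measured probes had the same sign. A probe above background on 1 array gave a bound, set against its own dim level or the floor of levels well above background (-5.05 for control, -5.96 for MEF2C-ASR), whichever was higher. Where the dim level was the higher, the bound is the ratio of the scaled levels and not a strict lower limit. Of 41174 probes 22951 were named through RefSeq (GRCm38.p6) by accession, 6659 by symbol, 3109 by an older symbol and 8455 by the file. With 1 array per group no test was possible, and precision is limited by the number of arrays. Named are all members, up to 3 genes past 2-fold in each list or else the 2 of highest signal, bounds past 2-fold and the neighbours of *Trem2* in the order of differences; other genes named for their role, place or marker use were chosen after their values were seen, and some list members are not reported here by name. Members and lists were chosen with earlier results of these data known. The steps were tested on simulated arrays, both made from the control array with the same background flags and the same noise for dim and bright spots. That simulation did not test bounds, flags that differ between arrays or the larger error of dim probes. Python 3.11.15, pandas 2.3.3, R 4.3.3 and limma 3.58.1 (normexp) were used. Alternatives covered scaling, background correction, dim probes, probe summary, flags, source table and the rule of size.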

Additional observations from a re-analysis of the deposited data

How the results depend on the processing

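The count of genes of the set at least 2-fold higher (2 as reported) was 1 when scaled by the 75th percentile of probes well above background, by the spike-in spots, by quantile normalization or with normexp correction, where *Cd300lf* was just short of 2-fold, and with the 3-fold rule; in each of these *Trem2* was the gene that remained. It was also 1 with brighter probes alone, which measured 7 of the set and left out *Trem2*, so that *Cd300lf* was the one counted. It was 3 with the 1.5-fold rule. The count lower was 0 in all 13 settings. The median of the set was 0.25 with spike-in scaling, which moved the median of all genes to -0.18. Of all genes, 161 were higher and 122 lower with normexp correction, 790 and 980 with all probes kept, 100 and 34 with brighter probes alone, 739 and 833 at 1.5-fold and 85 and 105 at 3-fold. The normexp curve was fitted without spots flagged for their local background, a choice made after seeing the data, because with them the fitted background of the control array was -905.3 (-11.08 without). No paired analysis was possible because each group had 1 array, and for the same reason no replicate could be left out. Signals near background limit *Cd300lb*, the second probe of *Cd300a* and the control level of *Trem2*.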
